A study of Mus musculus with 6 samples.

Results

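The 42 genes described here encode working parts of the lysosome, the acidic compartment in which cells break down proteins, lipids and sugar chains. They comprise 6 genes for lysosomal membrane proteins, 6 for cathepsins, 9 for glycosidases, 10 for other hydrolases and their cofactors, and 11 for subunits and accessory proteins of the vacuolar proton pump (V-ATPase). They were listed by name and not filtered on their values, though earlier results of these data were known when the list was made. Each symbol matched exactly 1 of the 54884 entries of the deposited table. Levels are in FPKM, the fragments mapped to a gene for each kilobase of its length and each 1000000 mapped in all. All 42 averaged 1 FPKM or more across the 6 libraries, the filter on low values, and so were among the 13702 entries tested.

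The RNA sequencing, of poly(A) RNA, was of mouse neural stem cells from the hippocampus of C57BL/6 (C57BL/6J in the protocol) embryos at day 14 of gestation, used between passages 3 and 8. Both groups carried a lentivirus, with an siRNA named circCon in the 3 control libraries and an siRNA against circHIPK2, a circular RNA made from the Hipk2 gene, in the other 3. The promoter that drives the siRNA, any selection of transduced cells and whether the replicates were separate cultures are details not given in the sources used here; p-values therefore reflect the spread among the 6 libraries alone, and that spread may be technical. The table holds no entry for the circle itself. The Hipk2 mRNA, which is no measure of the circle, lay between 30.9 and 36.9 FPKM in the controls, against between 23.8 and 28.8 FPKM with circHIPK2 siRNA, and did not pass the test described below (limma adjusted p = 0.257 by Benjamini-Hochberg). Its log2 fold change was −0.29 as deposited and −0.09 after the rescaling described next, when the groups overlapped.

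Depth, read from the steps between low FPKM values on the assumption that these are whole fragments, was between 18290000 and 21890000 fragments per library, so that 1 fragment of a 1 kb transcript was worth at most 0.0547 FPKM. The 12 neural stem cell markers summed to between 1770 and 2490 FPKM, those of astrocytes and of the oligodendrocyte lineage to between 358 and 742 and between 623 and 847 FPKM, and those of neurons to between 190 and 253 FPKM. Levels within each list differed widely, so the sums do not show which cell types were present. Mean levels over the 6 libraries were 980 FPKM for the stem cell marker Fabp7 and 0.967 FPKM for Prom1. Among oligodendrocyte lineage markers they were 425 FPKM for Olig1, 223 FPKM for Olig2 and 0.119 FPKM for Mog. Among neuron markers they were 102 FPKM for Gap43, 99.2 FPKM for Map2 and 0.226 FPKM for Rbfox3. The sum of 11 liver markers was 40.0 to 64.9 FPKM in the controls, against 2.10 to 2.21 FPKM with circHIPK2 siRNA. Of all FPKM, 9 entries that lie at the ribosomal RNA locus or move with it (called ribosomal RNA entries below) held 0.58%, 0.426% and 0.321% in controls 1 to 3, against 11.5%, 3.24% and 19.9% in siRNA libraries 1 to 3. FPKM is a relative measure, so what these entries take is missing from all others, and results are as deposited unless said to be rescaled, which means after rescaling without them.

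Lysosomal hydrolases are made in the endoplasmic reticulum, tagged with mannose-6-phosphate and sorted to the lysosome, where the V-ATPase pumps in the protons that these enzymes need. Heavily glycosylated membrane proteins such as LAMP1 and LAMP2 line the inside of the lysosomal membrane. Many of these genes share a promoter sequence known as the CLEAR element, to which the transcription factors TFEB and TFE3 bind. In neural stem cells lysosomes are known for clearing protein aggregates and growth factor receptors, with different activity in resting and dividing cells.

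Promoter windows of RefSeq (GRCm38.p6), running from 250 bases before to 50 bases after each transcription start, were found for 37 of the 42 genes, in 41 windows. The whole CLEAR consensus, which is TCACGTGA with a G before it and a C after it, was in none of these windows, against 0.326% of the 32851 windows of all genes. That share is too low for 41 windows to show a lack of it. The 8 bases TCACGTGA alone, which read the same on both strands, were in 6 of the 41 windows (14.6%), against 0.974% of all windows. The central CACGTG, which lies within both and also reads the same on both strands, was in 15 of 41 (36.6%), against 7.15%. Among 92 windows of other lysosomal genes listed below, 10.9% held TCACGTGA and 2.17% the whole consensus. These are letter matches in a window, not measured binding sites.

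The 6 windows with TCACGTGA are shown around the match because they show a sequence shared by members of 4 of the 5 classes, all but the other hydrolases; capitals mark it. They belong to the protective protein gene Ctsa, the protease gene Ctsd, the calcium channel gene Mcoln1, the proton pump genes Atp6v0d1 and Atp6v1a, and the galactosidase gene Gla, and lie at chr2:164833744-164833800 (plus strand), chr7:142387903-142387942 (minus), chr8:3500457-3500496 (plus), chr8:105566045-105566084 (minus), chr16:44139368-44139407 (minus) and chrX:134601177-134601249 (minus).
Ctsa: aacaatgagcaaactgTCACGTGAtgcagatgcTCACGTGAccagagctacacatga
Ctsd: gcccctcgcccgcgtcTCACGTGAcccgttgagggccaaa
Mcoln1: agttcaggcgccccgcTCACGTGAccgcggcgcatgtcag
Atp6v0d1: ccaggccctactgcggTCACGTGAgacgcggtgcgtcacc
Atp6v1a: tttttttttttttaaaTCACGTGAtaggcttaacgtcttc
Gla: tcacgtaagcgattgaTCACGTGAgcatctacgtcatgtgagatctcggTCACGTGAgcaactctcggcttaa
Ctsa and Gla each held 2 matches and the others 1.

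The lysosomal genes were expressed in both groups at widely differing levels, and no member passed the test for a difference between circHIPK2 siRNA and control. Mean levels over the 6 libraries ran from 2.20 FPKM for Gla to 300.2 FPKM for Lamp1, and 39 of the 42 lay at 5 FPKM or more. Lamp1, Ctsd, Psap and Atp6v0c were the most abundant member of their classes and lay above between 98.4% and 99.0% of all entries tested. Gla, Sgsh and Cd68, the least abundant members, lay above 14.3%, 19.6% and 32.7%.

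**Figure D1:**
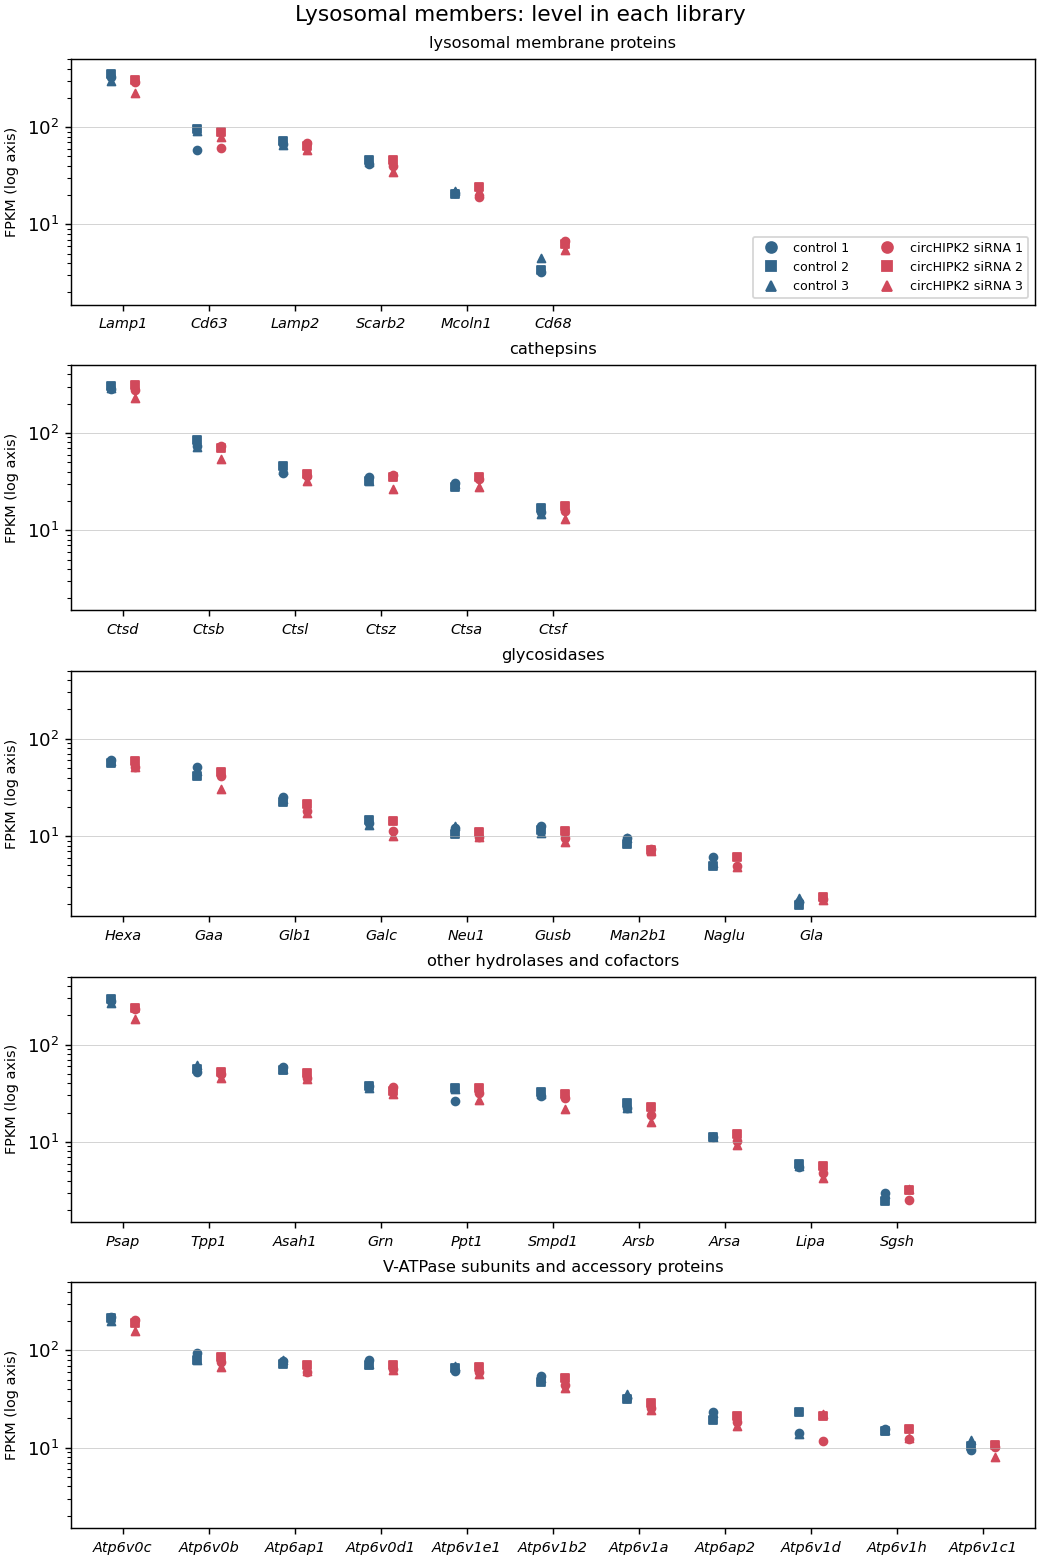
FPKM of each member (log axis) in control libraries 1 to 3 (blue) and circHIPK2 siRNA libraries 1 to 3 (red), in 5 panels by class and ordered by mean level; each point is 1 library. The groups overlap for most members, Cd68 is the member whose siRNA libraries all lie above the controls, and siRNA library 3 (red triangles) is often the lowest point.

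Of 42 members 0 were called higher and 0 lower (limma on log2(FPKM + 1), Benjamini-Hochberg adjusted p below 0.05), with adjusted p-values from 0.135 to 0.93. Over all entries 0.117% were called higher and 0.139% lower. Of the 19 entries called lower, 10 were liver markers. At an unadjusted p below 0.05, 1 member was higher and 6 were lower, against 1.83% and 15.5% of all entries, so the members' shares were close to those of the table. The libraries of the groups did not overlap for 1 member that was higher and 9 that were lower, beside 2.65% and 22.1% of all entries. The median log2 fold change of the members was −0.17 and that of all entries −0.12. In RNA from whole cultures, fewer cells of a type and less RNA per cell cannot be told apart.

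**Figure D2:**
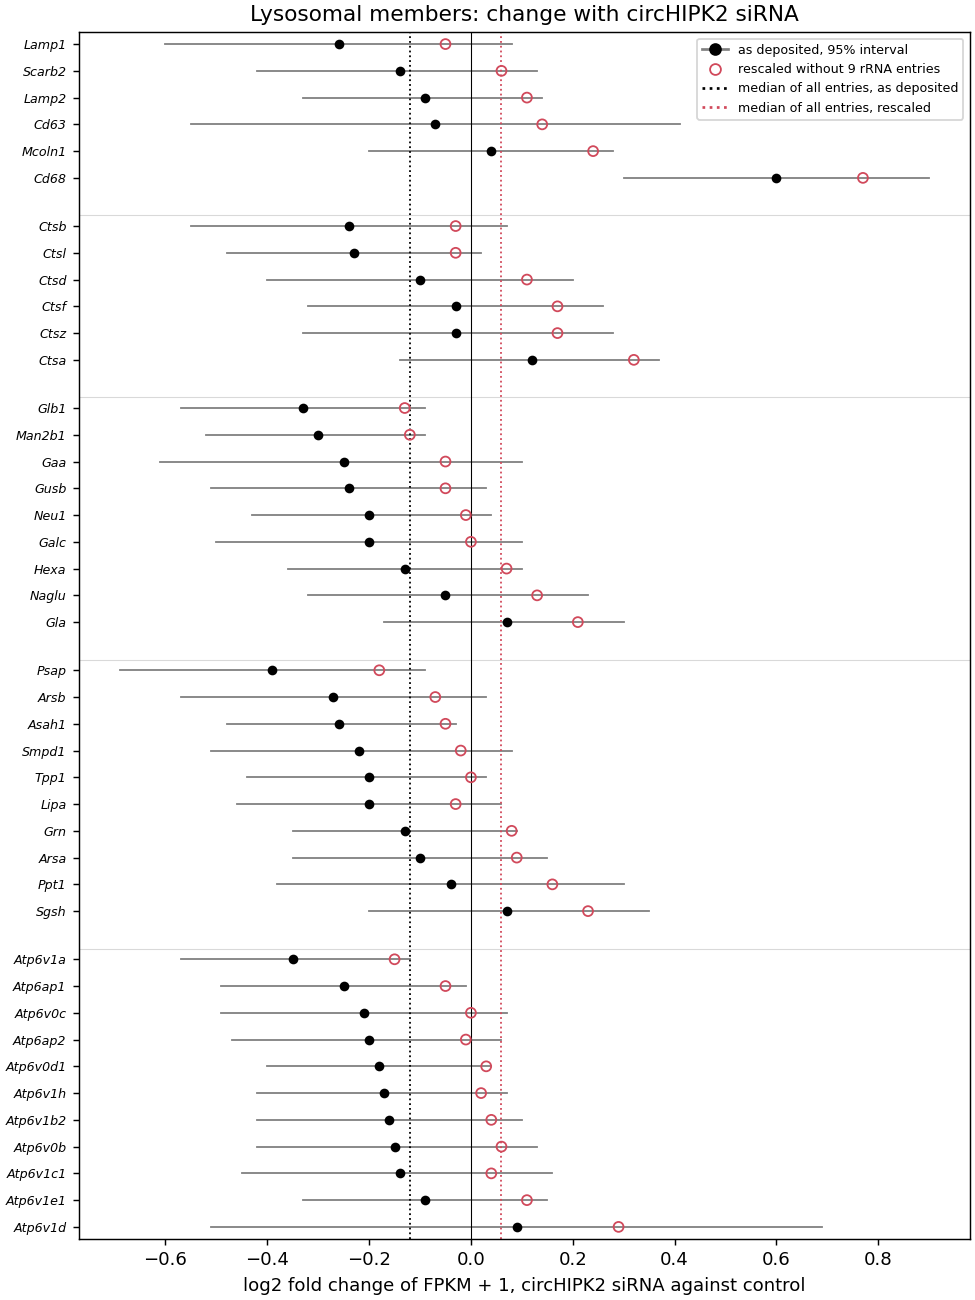
Log2 fold change of FPKM + 1 (circHIPK2 siRNA against control) of each member by class, as deposited (black, with 95% interval) and after rescaling without the 9 ribosomal RNA entries (open red circles); dotted lines mark the medians of all entries, −0.12 and 0.06. The members spread around the median of all entries on both scales, with Cd68 alone to the right.

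Among the genes of lysosomal membrane proteins, Lamp1 was the most abundant and Cd68 the least. Lamp1, which encodes the major glycoprotein of the lysosomal membrane, had 324, 354 and 301 FPKM across controls 1 to 3, against 291, 308 and 223 FPKM across siRNA libraries 1 to 3. The groups overlapped, since siRNA library 2 lay above control library 3. The means were 326 ± 26.7 and 274 ± 44.9 FPKM (SD, n = 3 each), with a log2 fold change of −0.26 (SE 0.15), which did not pass the test (limma adjusted p = 0.374 by Benjamini-Hochberg). Lamp2, whose products serve chaperone-mediated autophagy, and Scarb2, the receptor that carries glucocerebrosidase to the lysosome, had log2 fold changes of −0.09 and −0.14. Mcoln1, which encodes the calcium channel TRPML1 of the lysosomal membrane, had 21.1 ± 0.651 FPKM in the controls, against 21.9 ± 2.56 FPKM with the siRNA (SD, n = 3 each).

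Cd68 encodes a glycosylated lysosomal membrane protein related to LAMP1 that is abundant in macrophages. It had 3.27, 3.40 and 4.57 FPKM across controls 1 to 3, against 6.73, 6.23 and 5.49 FPKM across siRNA libraries 1 to 3. All 3 siRNA libraries lay above all 3 controls, a pattern shared by 2.65% of all entries. The means were 3.75 ± 0.72 and 6.15 ± 0.622 FPKM (SD, n = 3 each), a ratio of 1.64. The log2 fold change of 0.60 (SE 0.13, 95% interval 0.30 to 0.90) did not pass the test over all entries (limma adjusted p = 0.135 by Benjamini-Hochberg; unadjusted p = 0.00167; two-sided exact p by permutation = 0.1, which is the lowest possible with 3 libraries a group). It passed with library weights, as did 0.401% of all entries in that direction and 1.93% in the other (limma adjusted p = 0.0432 by Benjamini-Hochberg). With a mean of 4.95 FPKM, Cd68 was not tested in the alternative that filtered at 5 FPKM. Over the other alternatives the log2 fold change ran from 0.53 to 0.77 and the limma adjusted p from 0.0432 to 0.365.

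Defining markers of microglia and macrophages, all but Cd14, stayed below 0.5 FPKM in each library. Of 15 listed, Itgam, Cx3cr1, Ptprc, C1qb, C1qc and Trem2 were listed at 0 in all 6 libraries, and so was Ctss, the cathepsin S gene of microglia. The 15 markers summed to between 0.89 and 1.70 FPKM in the controls, against between 1.67 and 2.76 FPKM with the siRNA. Cd14, a lipopolysaccharide co-receptor gene, was the only marker of the 15 above the filter, had the highest FPKM of the 15 in each library, and is given as a description. Its control mean of 0.726 FPKM was under the filter, which it passed only through its siRNA mean of 1.58 FPKM, so it had to be higher there. It had 0.836, 0.421 and 0.922 FPKM in the controls, against 1.15, 1.81 and 1.77 FPKM with the siRNA. Of the other markers, Csf1r lay between 0.258 and 0.481 FPKM and P2ry12 between 0.0395 and 0.422 FPKM, and Aif1, Lyz2, Tyrobp, C1qa, Tmem119 and Fcgr3 stayed at or below 0.0958 FPKM in each library.

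**Figure D3:**
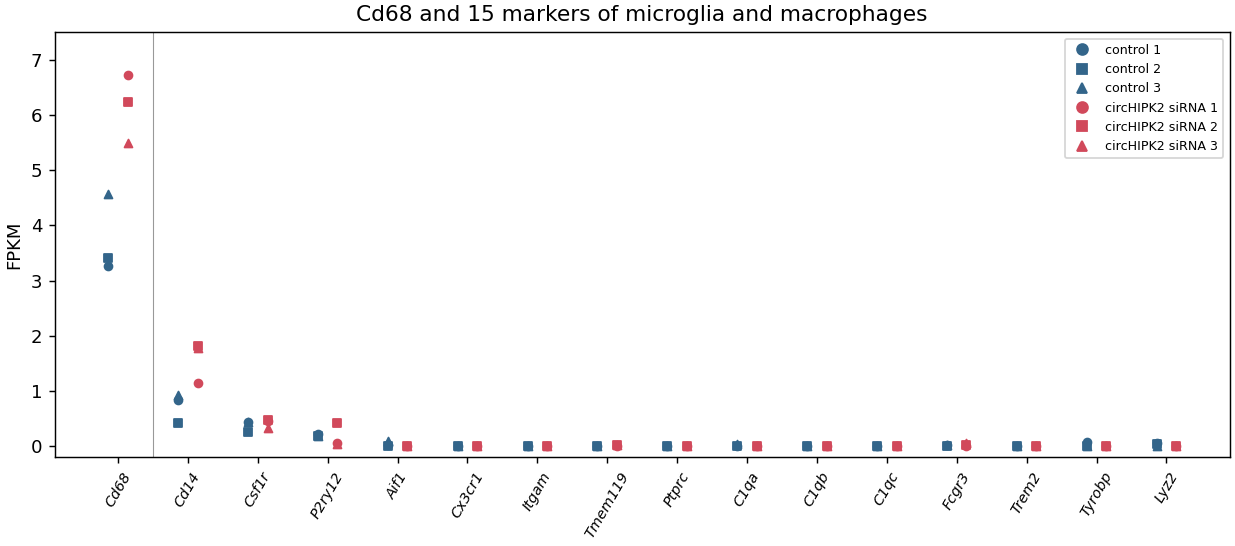
FPKM (linear axis) of Cd68, left of the line, and of 15 markers of microglia and macrophages in control (blue) and circHIPK2 siRNA (red) libraries, each point 1 library. Cd68 lies between 3.27 and 6.73 FPKM, Cd14 between 0.421 and 1.81 FPKM, and the other markers below 0.5 FPKM.

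The Cd68 promoter window is shown as that of the member with the highest fold change. It lies at chr11:69666121-69666420 on the minus strand of GRCm38.p6. Capitals mark GAGGAA, the core letters of sites for the macrophage factor PU.1, or its reverse complement TTCCTC.
Cd68: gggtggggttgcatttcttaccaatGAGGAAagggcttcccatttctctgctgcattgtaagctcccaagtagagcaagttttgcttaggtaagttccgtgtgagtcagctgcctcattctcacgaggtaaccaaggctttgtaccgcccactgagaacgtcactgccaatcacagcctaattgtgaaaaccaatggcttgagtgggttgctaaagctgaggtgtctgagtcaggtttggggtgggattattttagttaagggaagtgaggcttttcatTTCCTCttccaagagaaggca
The window held 2 such matches, as these letters are found in 28.3% of all windows, and held no CACGTG.

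Cathepsins are the lysosomal proteases, and none of the 6 measured differed beyond the test. Ctsd, the aspartic protease and the most abundant of them, had 281, 301 and 288 FPKM across controls 1 to 3, against 279, 308 and 229 FPKM across siRNA libraries 1 to 3. The groups overlapped: siRNA library 2 was the highest of the 6, library 1 lay just under the lowest control and library 3 further below. The means were 290 ± 10.0 and 272 ± 40.0 FPKM (SD, n = 3 each; log2 fold change −0.10, SE 0.13, limma adjusted p = 0.694 by Benjamini-Hochberg). The entry Gm49369 overlaps 34.4% of the exonic bases of Ctsd on the same strand, and reads in that stretch cannot be assigned between them.

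The cysteine proteases Ctsb and Ctsl had the lowest log2 fold changes of the class, −0.24 (SE 0.14) and −0.23 (SE 0.11). Ctsb had 74.2, 85.1 and 72.1 FPKM in the controls, against 72.7, 70.2 and 53.9 FPKM with the siRNA, and the groups overlapped. Ctsl had 38.4, 46.1 and 41.7 FPKM in the controls, against 36.4, 38.3 and 32.2 FPKM with the siRNA, with siRNA library 2 just under control library 1. After rescaling the libraries of Ctsl overlapped. Ctsf and Ctsz both had log2 fold changes of −0.03. Ctsa, the serine carboxypeptidase that protects neuraminidase and beta-galactosidase, was the cathepsin with the highest fold change, with 30.6, 28.1 and 30.1 FPKM in the controls, against 33.7, 35.5 and 27.9 FPKM with the siRNA. As deposited, siRNA libraries 1 and 2 lay above the controls and library 3 below them. After rescaling all 3 siRNA libraries of Ctsa lay above all controls, as for 14% of all entries. The log2 fold change of Ctsa was 0.12 as deposited (SE 0.11, limma adjusted p = 0.576 by Benjamini-Hochberg). After rescaling without the ribosomal RNA entries it was 0.32 (limma adjusted p = 0.256 by Benjamini-Hochberg).

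Glycosidases trim sugar chains from glycolipids, glycoproteins and glycogen. Of the 9 measured, 8 had log2 fold changes below 0, beside 77.1% of all entries, and the class median was −0.20 beside −0.12. After rescaling 6 of the 9 were below 0, beside 35.8% of all entries, with a class median of −0.01 beside 0.06. Hexa, the alpha subunit of beta-hexosaminidase and the most abundant, had 61.0, 56.8 and 59.6 FPKM across controls 1 to 3, against 51.4, 59.5 and 51.4 FPKM across siRNA libraries 1 to 3. The groups overlapped through siRNA library 2, and the log2 fold change was −0.13 (SE 0.10, limma adjusted p = 0.498 by Benjamini-Hochberg). Gaa, the alpha-glucosidase of glycogen breakdown, was the second most abundant at 46.4 ± 4.94 and 39.1 ± 7.68 FPKM (SD, n = 3 each). Gla, which encodes alpha-galactosidase A, was the least abundant member, with 2.10, 1.98 and 2.30 FPKM in the controls, against 2.26, 2.36 and 2.21 FPKM with the siRNA (log2 fold change 0.07, SE 0.10).

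As deposited, the glycosidase genes whose libraries did not overlap were Glb1 and Man2b1, both lower, a pattern shared by 22.1% of all entries. Glb1, the beta-galactosidase that also serves as the senescence stain, had 25.1, 22.5 and 24.0 FPKM in the controls, against 18.0, 21.2 and 17.3 FPKM with the siRNA. Its means of 23.9 ± 1.33 and 18.8 ± 2.05 FPKM (SD, n = 3 each) gave a log2 fold change of −0.33 (SE 0.11), which did not pass (limma adjusted p = 0.205 by Benjamini-Hochberg). Man2b1, the lysosomal alpha-mannosidase, had 9.51, 8.35 and 9.51 FPKM in the controls, against 7.34, 7.14 and 7.11 FPKM with the siRNA. The 3 siRNA values of Man2b1 lay close together as deposited, and its log2 fold change was −0.30 (SE 0.09, limma adjusted p = 0.199 by Benjamini-Hochberg). After rescaling without the ribosomal RNA entries the log2 fold changes of Glb1 and Man2b1 were −0.13 and −0.12, and the groups overlapped for both.

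Neu1 and Ctsa encode the neuraminidase and the protective protein that form a complex with beta-galactosidase. Neu1 had a log2 fold change of −0.20, below 0 like Glb1, while that of Ctsa was above 0. The 3 were not tested against each other. Gusb, the beta-glucuronidase, Galc, the galactocerebrosidase of myelin lipid breakdown, and Naglu, an enzyme of heparan sulfate breakdown, had log2 fold changes of −0.24, −0.20 and −0.05, with adjusted p-values of 0.33, 0.444 and 0.854 (limma with Benjamini-Hochberg adjustment).

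The other hydrolases and cofactors act on sphingolipids, sulfated sugars, proteins and lipid esters. Psap, the precursor of the saposins that present sphingolipids to their enzymes, was by far the most abundant and had the lowest log2 fold change of all members. It had 282, 297 and 269 FPKM across controls 1 to 3, against 233, 237 and 182 FPKM across siRNA libraries 1 to 3. All siRNA libraries lay below all controls, as for 22.1% of all entries, and library 3 was the lowest. The means were 282 ± 14.1 and 217 ± 30.7 FPKM (SD, n = 3 each), a control level 1.30 times that with the siRNA. The log2 fold change of −0.39 (SE 0.13, 95% interval −0.69 to −0.09) did not pass (limma adjusted p = 0.218 by Benjamini-Hochberg), and was −0.18 after rescaling without the ribosomal RNA entries. All siRNA libraries of Psap still lay below all controls after rescaling, as for 4.28% of all entries.

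Asah1, the acid ceramidase, had 59.1, 54.4 and 55.8 FPKM in the controls, against 45.5, 51.6 and 44.1 FPKM with the siRNA, without overlap (log2 fold change −0.26, SE 0.10, limma adjusted p = 0.25 by Benjamini-Hochberg). After rescaling its libraries overlapped and the log2 fold change was −0.05. Smpd1, the acid sphingomyelinase, and Arsa, the arylsulfatase that degrades sulfatide, had log2 fold changes of −0.22 and −0.10, and their libraries overlapped. Tpp1, the tripeptidyl peptidase lost in a neuronal ceroid lipofuscinosis, had 52.3, 56.8 and 61.3 FPKM in the controls, against 50.1, 52.1 and 45.3 FPKM with the siRNA, just without overlap. After rescaling the libraries of Tpp1 overlapped. Grn, the progranulin gene, had 36.8 ± 1.20 and 33.7 ± 2.69 FPKM, and Ppt1, a protein thioesterase, 32.5 ± 5.47 and 31.5 ± 4.23 FPKM (SD, n = 3 each). Arsb, a sulfatase of dermatan sulfate, and Lipa, the acid lipase of cholesteryl esters, had log2 fold changes of −0.27 and −0.20. Sgsh, the heparan N-sulfatase, was the only gene of this class with a fold change above 0, with 2.97, 2.46 and 2.93 FPKM in the controls, against 2.53, 3.20 and 3.25 FPKM with the siRNA (log2 fold change 0.07, SE 0.12).

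The V-ATPase consists of a V1 sector that hydrolyses ATP and a V0 sector in the membrane that carries protons. Of the 11 genes measured, 10 had log2 fold changes below 0, as did 77.1% of all entries, with a class median of −0.17 beside −0.12. After rescaling 4 of the 11 were below 0, beside 35.8% of all entries, and the class median was 0.03 beside 0.06. Atp6v0c, the proteolipid of the rotating ring, was the most abundant, with 223, 215 and 202 FPKM across controls 1 to 3, against 204, 193 and 158 FPKM across siRNA libraries 1 to 3. The groups overlapped, since siRNA library 1 lay above control library 3, and the log2 fold change was −0.21 (SE 0.12, limma adjusted p = 0.393 by Benjamini-Hochberg). The other ring subunit, Atp6v0b, had 84.5 ± 8.49 and 76.3 ± 8.72 FPKM (SD, n = 3 each), and Atp6v0d1, which joins the ring to the central stalk, had 74.6 ± 4.14 and 65.9 ± 3.72 FPKM.

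Atp6v1a, the catalytic subunit of V1, had the lowest fold change of the pump genes. It had 32.7, 32.0 and 36.1 FPKM in the controls, against 25.5, 28.6 and 24.6 FPKM with the siRNA. No siRNA library reached the lowest control as deposited, while after rescaling the groups overlapped. The means of 33.6 ± 2.18 and 26.2 ± 2.11 FPKM (SD, n = 3 each) gave a log2 fold change of −0.35 (SE 0.10, 95% interval −0.57 to −0.12), which did not pass (limma adjusted p = 0.19 by Benjamini-Hochberg) and was −0.15 after rescaling without the ribosomal RNA entries. Atp6v1b2, the B subunit that alternates with A in the V1 ring, had 54.9, 47.4 and 51.7 FPKM in the controls, against 44.2, 52.1 and 41.5 FPKM with the siRNA, with overlap (log2 fold change −0.16, SE 0.11). Of the stalk and regulatory subunits of V1, Atp6v1c1, Atp6v1e1 and Atp6v1h had log2 fold changes of −0.14, −0.09 and −0.17. The accessory proteins Atp6ap1 and Atp6ap2, which help assemble the pump, had log2 fold changes of −0.25 and −0.20, and the libraries of Atp6ap1 did not overlap as deposited (60.3 to 71.6 FPKM with the siRNA and 72.6 to 79.7 FPKM in the controls). After rescaling they overlapped, and the log2 fold change of Atp6ap1 was −0.05.

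Atp6v1d, a central stalk subunit, varied most between libraries of the same group. It had 14.1, 23.3 and 13.9 FPKM in the controls, against 11.8, 21.4 and 22.0 FPKM with the siRNA. Control library 2 and siRNA libraries 2 and 3 were high and the other 3 low, so the high and low values did not follow the groups. Its SD within groups, 0.44 on the log2(FPKM + 1) scale, was the largest among the members, followed by 0.34 for Cd63, a tetraspanin of late endosomes and exosomes. Cd63 had 58.0, 95.5 and 90.4 FPKM in the controls, against 60.8, 90.1 and 79.0 FPKM with the siRNA, with library 1 of each group low.

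Reads of Cd63 and Atp6v0c may be split with near-identical copies. The Cd63-ps entry had 187 to 207 FPKM in the controls, against 205 to 228 FPKM with the siRNA, more than Cd63 itself. Cd63 and Cd63-ps together had 278 ± 29.6 and 293 ± 22.7 FPKM (SD, n = 3 each). Atp6v0c-ps2 had 170 to 196 FPKM in the controls, against 114 to 189 FPKM with the siRNA. Together with Atp6v0c this gave 400.1 ± 8.26 and 349 ± 66.5 FPKM, with siRNA library 3 at 272 FPKM the lowest. In the GENCODE M21 annotation, exons of 17 of the 42 members overlap an exon of another gene, 3 of them on the same strand (Ctsd, Ctsl and Glb1). No source used here says whether the authors' counting used strand, so such reads cannot be told apart.

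Several V-ATPase subunits have more than 1 gene, and their levels differed widely between copies. Levels in this comparison are FPKM, which is per length. Subunit B came from Atp6v1b2, with Atp6v1b1, the copy of kidney and inner ear, at no more than 0.0545 FPKM in any library. Subunit d came from Atp6v0d1, with the osteoclast copy Atp6v0d2 at no more than 0.0184 FPKM. Subunit C came from Atp6v1c1 and subunit E from Atp6v1e1, with Atp6v1c2 and the testis copy Atp6v1e2 at no more than 0.016 and 0.457 FPKM.

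The a subunit, which steers the pump to different membranes, was read from 3 genes. Atp6v0a1, the form enriched in neurons, had 30.8 to 38.6 FPKM over the 6 libraries, Atp6v0a2 16.9 to 22.4 FPKM and Tcirg1, the osteoclast form, 5.72 to 7.40 FPKM, in that order in each library. The kidney form Atp6v0a4 had at most 0.218 FPKM. For the small e subunit the brain-enriched Atp6v0e2 (113 to 151 FPKM) lay above Atp6v0e (51.2 to 63.3 FPKM) in each library. For subunit G the widely expressed Atp6v1g1 (55.4 to 72.1 FPKM) lay above the neuronal Atp6v1g2 (7.49 to 11.3 FPKM), and Atp6v1g3 was listed at 0 in all 6.

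**Figure D4:**
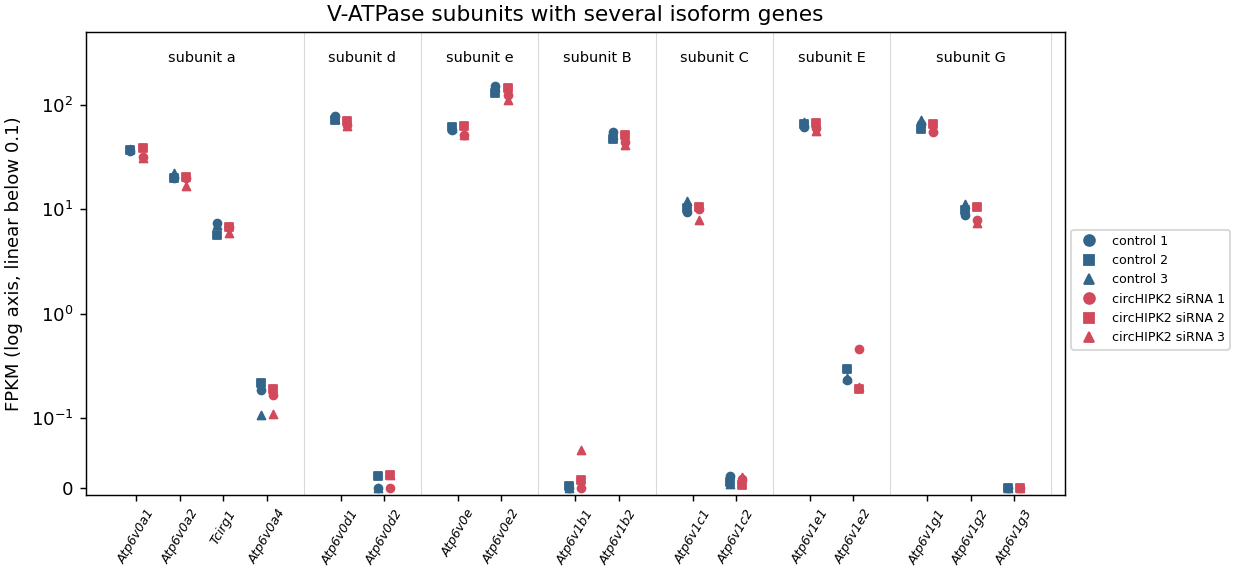
FPKM (log axis, linear below 0.1) of the isoform genes of 7 V-ATPase subunits in control (blue) and circHIPK2 siRNA (red) libraries, each point 1 library. Atp6v0d1, Atp6v1b2, Atp6v1c1 and Atp6v1e1 lie far above their sister genes, and the order of the isoforms of a, e and G is the same in both groups.

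Further lysosomal genes outside the 42 did not pass the test either. Of 96 listed genes in 5 further groups 85 were tested, and 0 were called higher and 0 lower. At an unadjusted p below 0.05, 0 were higher and 11 lower, beside 1.83% and 15.5% of all entries. The median log2 fold change was −0.11, with 73 of the 85 below 0, beside −0.12 and 77.1% for all entries. After rescaling 6 were higher and 1 lower, beside 8.86% and 2.86% of all entries. The median was then 0.08, with 22 of the 85 below 0, beside 0.06 and 35.8% for all entries. Among 25 other lysosomal enzymes and cofactors tested, Gm2a, the activator protein that lifts GM2 ganglioside for Hexa, was both the most abundant and the one with the smallest p. It had 57.7, 62.9 and 61.0 FPKM in the controls, against 45.6, 46.2 and 32.3 FPKM with the siRNA, without overlap (log2 fold change −0.56, SE 0.14, limma adjusted p = 0.167 by Benjamini-Hochberg). After rescaling the log2 fold change of Gm2a was −0.35. Its siRNA libraries then still lay below all controls, as for 4.28% of all entries. Npc2, the cholesterol carrier of the lysosome, singled out once values were known, had 53.2 ± 4.26 and 40.9 ± 3.06 FPKM (SD, n = 3 each; log2 fold change −0.37, limma adjusted p = 0.185 by Benjamini-Hochberg; −0.17 after rescaling).

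Among 20 other membrane proteins and transporters tested, Ostm1, the partner of the chloride exchanger ClC-7, had the smallest p, with 16.8 ± 1.42 and 13.4 ± 1.32 FPKM (SD, n = 3 each; log2 fold change −0.31, limma adjusted p = 0.226 by Benjamini-Hochberg; −0.11 after rescaling). Laptm4a was the most abundant, at 162 ± 7.73 and 155 ± 15.2 FPKM. Of 8 other V-ATPase subunits tested, all 8 had log2 fold changes below 0, as did 77.1% of all entries, from −0.24 for Atp6v1f to −0.04, with Atp6v0e2 the most abundant (log2 fold change −0.17). After rescaling 2 of the 8 were below 0, beside 35.8% of all entries. Of 13 genes of mannose-6-phosphate sorting 12 were below 0 as deposited and 3 after rescaling, beside 77.1% and 35.8% of all entries. As deposited Ap1s1 had the smallest p (log2 fold change −0.22, limma adjusted p = 0.36 by Benjamini-Hochberg). Ap1m1, the most abundant, had a log2 fold change of −0.18.

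The transcription factors that bind the CLEAR element also did not pass the test. Tfeb had 5.98, 5.43 and 5.56 FPKM in the controls, against 4.86, 7.60 and 5.80 FPKM with the siRNA (log2 fold change 0.07, SE 0.14, limma adjusted p = 0.805 by Benjamini-Hochberg). Tfe3 had 16.3, 7.54 and 16.7 FPKM in the controls, against 16.5, 16.8 and 14.4 FPKM with the siRNA, with control library 2 apart from the other 5. Both were named after their values were seen, as were the V-ATPase isoforms. Tfec was listed at 0 in all 6. Of the 19 transcription factor and nutrient sensing genes tested, Rheb, the GTPase that activates mTORC1, had the smallest p, with 27.2 ± 1.10 and 22.5 ± 0.971 FPKM (SD, n = 3 each; log2 fold change −0.26, limma adjusted p = 0.215 by Benjamini-Hochberg; −0.06 after rescaling), and Lamtor1, the lysosomal anchor of the Ragulator complex, the highest mean (log2 fold change −0.14). The 6 members whose windows hold TCACGTGA had log2 fold changes of 0.12 for Ctsa, 0.07 for Gla, 0.04 for Mcoln1, −0.10 for Ctsd, −0.18 for Atp6v0d1 and −0.35 for Atp6v1a. In the same order they were 0.32, 0.21, 0.24, 0.11, 0.03 and −0.15 after rescaling.

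How low the members appeared with circHIPK2 siRNA depended on whether the ribosomal RNA entries were counted. This follows from arithmetic, since leaving out entries that hold more of the siRNA libraries had to raise those libraries most. Summed over the 42 members, control libraries 1 to 3 had 0.509%, 0.514% and 0.524% of all FPKM, and siRNA libraries 1 to 3 had 0.467%, 0.513% and 0.41%. The siRNA libraries with the most FPKM in the ribosomal RNA entries, 3 and then 1, had the least in lysosomal genes. Of FPKM without those 9 entries, the same sums were 0.512%, 0.516% and 0.526% in the controls and 0.527%, 0.53% and 0.512% with the siRNA, so the groups overlapped. As deposited, siRNA library 3 held the lowest of the 6 values for 33 of the 42 members, beside 48.3% of all entries. After rescaling it held the lowest for 7 of 42, beside 10.8%.

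**Figure D5:**
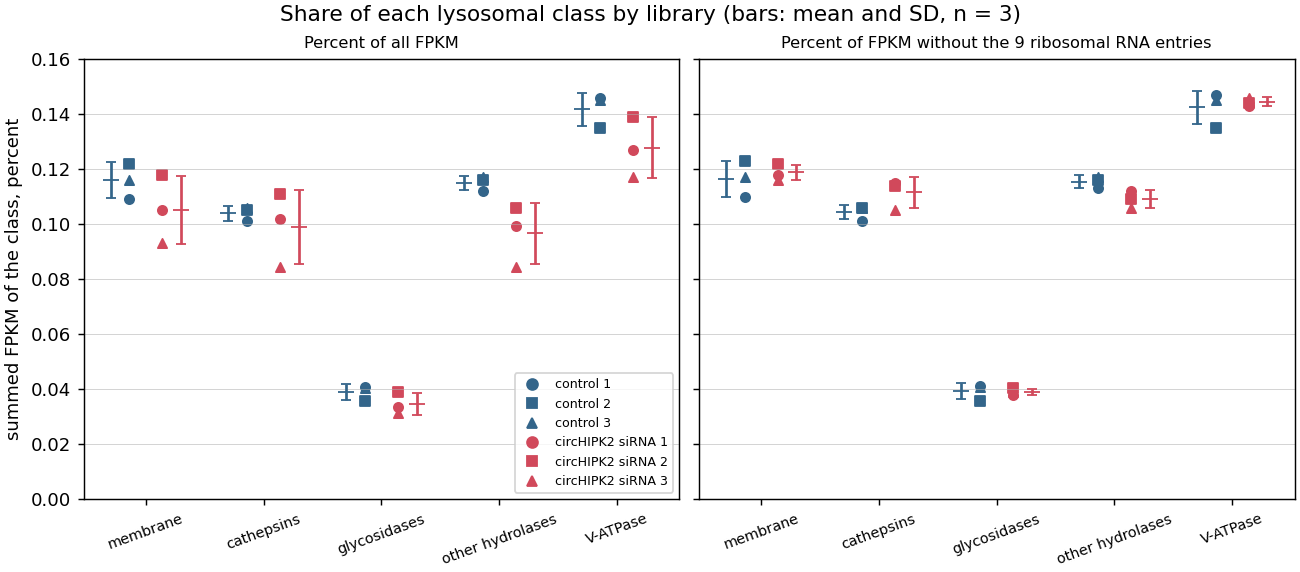
Summed FPKM of each class as a percent of all FPKM (left) and of FPKM without the 9 ribosomal RNA entries (right), by library, with control in blue and circHIPK2 siRNA in red; crossbars give the mean and SD (n = 3). On the left siRNA library 3 is the lowest point of each class, and on the right it is the lowest only for the other hydrolases.

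After rescaling 19 members had a log2 fold change below 0 and 23 above, beside 35.8% and 64.2% of all entries. As deposited they numbered 36 and 6, beside 77.1% and 22.9%. The rescaled median was 0.04 beside 0.06 for all entries. On the rescaled values libraries did not overlap for 4 members that were higher (Cd68, Ctsa, Ctsf and Gla) and 1 that was lower (Psap). These counts stood beside 14% and 4.28% of all entries, and 0 members were called. Among the classes, the other hydrolases and cofactors had 0.115% ± 0.00232 of this FPKM in the controls, against 0.109% ± 0.00333 with the siRNA, and their libraries did not overlap. Without Psap this class had 0.0550% ± 0.00261 and 0.0557% ± 0.000215, and its libraries overlapped. Cathepsins had 0.104% ± 0.00262 and 0.112% ± 0.00554, and V-ATPase genes 0.142% ± 0.00612 and 0.145% ± 0.00165 (SD, n = 3 each).

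Counts at an unadjusted p below 0.05 followed the scaling in the same way. On the rescaled values 2 members were higher and 0 lower, beside 8.86% and 2.86% of all entries, and 0.109% of all entries were called in each direction. With median-of-ratios scaling 2 were higher and 4 lower, beside 5.81% and 7.82%, and 0 were called, beside 0.0657% and 0.11%. There 27 members lay below 0 and 15 above, beside 53.4% and 46.6% of all entries, and the median was −0.05 beside −0.01. Libraries did not overlap for 3 members that were higher and 6 that were lower, beside 8.96% and 11.4% of all entries. With quantile normalization 2 members were higher and 3 lower, beside 6.35% and 6.45%, and 0 were called, beside 0.0292% and 0.0876%. Without siRNA library 3, on the values as deposited, 2 were higher and 4 lower, beside 2.35% and 9.21%, 0 were called, beside 0.0145% and 0.0436%, and the median was −0.09 beside −0.08 for all entries. With library weights 1 was higher and 13 were lower, beside 2.9% and 25.4%. With the replicate number as a block 1 was higher and 4 were lower, beside 1.9% and 13.5%, and 0 were called, beside 0.168% in each direction. Without siRNA library 2 the members lower numbered 15, beside 21.6% of all entries, and without control library 1 they numbered 3, beside 8.8%.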

How the data were processed

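The members and gene lists were chosen with earlier results of these data known. The authors deposited 1 table of FPKM values for 54884 entries named by gene symbol in 6 libraries. The tools named for them, per the submitters' processing notes, are HISAT, StringTie and edgeR, and the build is mm9. Not given in the sources used here are versions, annotation, and use of strand and of the adapters' unique molecular identifiers. Deposited FPKM were taken to log2 after adding 1, keeping the 13702 entries whose mean was 1 FPKM or more. All of these were fitted with limma 3.58.1 in R 4.3.3 (trend, two-sided, Benjamini-Hochberg adjustment, called below 0.05). Fold changes on the log2(FPKM + 1) scale are too small for weak genes. Folds called ratios are of mean FPKM. The steps were tested on simulated data. Depth came from single-transcript genes of at least 500 nt in GENCODE M21; between 32.4% and 40.1% of low values lay within 0.05 steps of whole fragments. Without counts in the file, no count model was run. Named in full were, in each class, the member with the highest mean and those with the largest rise and fall; from each further list, the smallest p and the highest mean. Other genes with library values were picked with their values in view. The 17 alternatives changed the pseudocount (0.1 or 0.5), the filter (none, or 5 FPKM), the scaling (median-of-ratios, quantile, or without ribosomal RNA entries), the fit (no trend, robust, library weights, replicate block) or left out 1 library. The 9 ribosomal RNA entries are AY036118, CT010467.1, Lars2, Gm15564, Gm26917, Gm23935, Gm24270, Gm24187 and Gm42418. Because the builds differ, only promoter windows have coordinates.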

Additional observations from a re-analysis of the deposited data

How the results depend on the processing

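No member was called under 16 of the 17 alternatives, and with library weights 1 was, Cd68 (log2 fold change 0.66). No gene of the further lysosomal lists was called under any of the 17. Over all entries 16 were called higher and 19 lower. Called higher were 7 without a filter, 9 with median-of-ratios scaling, 4 with quantile normalization, 8 with robust moderation and 55 with library weights, and between 2 and 15 with 1 library left out, the 2 without siRNA library 3 and 8 without control library 3. Called lower were 8 at a mean of at least 5 FPKM, 12 with quantile normalization and 265 with library weights, and between 6 and 23 with 1 library left out, the 6 without siRNA library 3 and 12 without control library 1. Members lower at an unadjusted p below 0.05 numbered 6, against 3 with quantile normalization, 0 after rescaling and 13 with library weights, and between 3 (without control library 1) and 15 (without siRNA library 2, where 21.6% of all entries were lower and 82.5% had a log2 fold change below 0) with 1 library left out. Members higher numbered 1, against 0 at a mean of at least 5 FPKM, where Cd68 is not tested, and 2 with median-of-ratios scaling, quantile normalization or rescaling, and between 1 and 2 with 1 library left out. The cause of these changes was not tested.

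Log2 fold changes changed sign as follows. With median-of-ratios scaling they were Lamp2 0.03, Cd63 0.05, Ctsd 0.02, Ctsf 0.09, Ctsz 0.09, Naglu 0.06, Arsa 0.02, Ppt1 0.08, Atp6v1e1 0.03 and Laptm4a 0.06. With quantile normalization they were Lamp2 0.10, Cd63 0.12, Scarb2 0.02, Ctsd 0.13, Ctsf 0.10, Ctsz 0.14, Hexa 0.07, Naglu 0.06, Grn 0.03, Arsa 0.03, Ppt1 0.12, Atp6v0b 0.04, Atp6v0d1 0.01, Atp6v1b2 0.03, Atp6v1e1 0.10, Ap1m1 0.01, Atp6v0e2 0.04, Lamtor1 0.05 and Laptm4a 0.13. After rescaling they were Lamp2 0.11, Cd63 0.14, Scarb2 0.06, Ctsd 0.11, Ctsf 0.17, Ctsz 0.17, Hexa 0.07, Naglu 0.13, Grn 0.08, Arsa 0.09, Ppt1 0.16, Atp6v0b 0.06, Atp6v0d1 0.03, Atp6v1b2 0.04, Atp6v1c1 0.04, Atp6v1e1 0.11, Atp6v1h 0.02, Ap1m1 0.03, Atp6v0e2 0.04, Lamtor1 0.06 and Laptm4a 0.14. With library weights they were Mcoln1 −0.05, Ctsf 0.02, Ctsz 0.06, Sgsh −0.05, Ppt1 0.02, Atp6v1d −0.13 and Tfeb −0.08. With 1 library left out, the values of the genes whose sign changed ran from −0.29 to 0.09 for Cd63, −0.04 to 0.12 for Mcoln1, −0.20 to 0.02 for Ctsd, −0.13 to 0.09 for Ctsf, −0.11 to 0.12 for Ctsz, −0.14 to 0.03 for Naglu, −0.18 to 0.06 for Ppt1, −0.06 to 0.37 for Atp6v1d, −0.23 to 0.05 for Lamtor1, −0.05 to 0.47 for Tfe3 and −0.08 to 0.20 for Tfeb.

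Same-numbered libraries had correlations of 0.046, 0.015 and 0.133 between their deviations from the group means. Those of differently numbered libraries ran from −0.166 to 0.117. The labels name no pairing, and deviations from means of 3 libraries cannot settle whether there was any. With the replicate block 23 entries were called higher and 23 lower, 0 of them members. Levels under 0.0547 FPKM, the most that 1 fragment of a 1 kb transcript is worth, such as those of Atp6v0d2, are not resolved at this depth.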
